A study of Homo sapiens with 24 samples.

Results

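The interferon response genes are the set of genes that cells switch on when they sense interferon or foreign nucleic acid, and 45 of them, taken from a fixed list of gene names, were followed across 4 prostate cancer cell lines and 3 doses of the BET bromodomain inhibitor I-BET762. Of the 45 genes, 44 had a probe set named for that gene alone, among 19775 genes measured in all. STAT2 had no single-symbol probe set in the annotation used and was not analysed here. The 44 genes were covered by 76 probe sets, with 1 probe set for each of 21 genes and several for each of the other 23. Each gene was represented by 1 probe set, the one with the highest mean log2 signal over the 24 arrays.

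The 12 groups, in the cultured lines LNCaP, VCaP, PC3 and NCI-H660, were cells given the DMSO vehicle alone, 0.5 µM I-BET762 or 10 µM I-BET762 for 24 h, with 2 biological replicates per group and 24 arrays in total. I-BET762, also known as GSK525762A, blocks the bromodomains with which BET proteins bind acetylated chromatin. LNCaP and VCaP are luminal, androgen-dependent lines, PC3 grows without androgen signalling, and NCI-H660 is a neuroendocrine small cell line. Each line is a single established culture, so the spread between replicates describes that culture and not prostate tumours.

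Interferons bind receptors on the cell surface, the receptor-bound kinases JAK1 and TYK2 phosphorylate STAT proteins, and the STAT2 and IRF9 containing complex ISGF3 binds the interferon-stimulated response element, or ISRE, in the promoters of its target genes. Type II interferon acts through a related site, the gamma-activated sequence or GAS. The products of the target genes detect viral RNA, degrade it, block its translation, attach the ubiquitin-like protein ISG15 to other proteins, or recruit T cells as chemokines. Many tumour cells keep part of this programme on without any added interferon.

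Expression was read as MAS5 signal, a linear intensity that the authors scaled to a common target on each array, and a signal of 100 was taken as the detection floor. The median signal of an array lay between 72.3 and 100.3, between 44.4% and 50.1% of probe sets reached the floor, and replicate arrays correlated at r of 0.934 to 0.953 across probe sets on the log2 scale. A call, in either direction, needed an adjusted p under 0.1 in limma, a fold over 2 and a mean signal of 100 in one of the groups. Where an array of the dimmer group lay under the floor, the fold is given as a lower bound against it. An array measures pooled RNA, so fewer cells with a transcript and less of the transcript per cell cannot be told apart.

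The line markers went against 2 of the labels. ERG, which VCaP carries as a gene fusion, had signals of 2867 to 7084 on the 6 arrays labelled LNCaP, against 5.86 to 28.3 on the 6 arrays labelled VCaP. ETV1, the ETS gene rearranged in LNCaP, had 14.5 to 90.3 on arrays labelled LNCaP, against 192 to 408 on arrays labelled VCaP. Both sets of arrays are therefore named by their label throughout, as "labelled LNCaP" and "labelled VCaP". On all 6 arrays of the line, the luminal markers passed the floor in 5 of 5 genes under both luminal labels, and the neuroendocrine markers in 6 of 6 genes in NCI-H660 and 5 of 6 on arrays labelled LNCaP. Fibroblast markers did so in 0 to 2 of 5 genes per line, and leukocyte markers in 0 of 6, with summed leukocyte signals of 168 to 531. The leukocyte marker PTPRC reached at most 62.1 on the 24 arrays, under the floor on each of them.

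The promoters of the listed genes were searched for the 2 response elements. RefSeq promoter windows, 250 bases before to 50 after an annotated start in GRCh38.p14, were matched by symbol for 36 of the 45 genes, STAT2 among them, with 48 windows. The ISRE core (GAAA, any 2 bases, GAAA, which reads TTTC, any 2 bases, TTTC on the other strand) was found in 24 of these 36 genes (66.7%), against 4.38% of the 27305 genes with a window. The GAS core TTCNNNGAA, which reads the same on both strands, was found in 13 of 36 (36.1%), against 9.38% of all genes. In 5 genes an ISRE match overlapped a GAS match, and in 4 genes 2 ISRE matches overlapped each other. These are matches of letters and no measure of binding. The 250 bases before the start are shown for 6 genes whose signals changed with the drug, 4 of them among the recurrent changes and 2 seen on arrays labelled LNCaP, with the ISRE matches in capitals (for HERC5 they lie on the other strand).
OAS3, chr12:112938224-112938473, plus strand: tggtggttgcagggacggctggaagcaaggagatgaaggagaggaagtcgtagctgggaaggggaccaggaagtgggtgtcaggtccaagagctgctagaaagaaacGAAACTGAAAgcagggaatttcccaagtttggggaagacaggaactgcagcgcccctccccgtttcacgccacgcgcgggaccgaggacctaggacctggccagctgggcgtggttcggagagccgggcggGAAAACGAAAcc
ISG20, chr15:88638766-88639015, plus strand: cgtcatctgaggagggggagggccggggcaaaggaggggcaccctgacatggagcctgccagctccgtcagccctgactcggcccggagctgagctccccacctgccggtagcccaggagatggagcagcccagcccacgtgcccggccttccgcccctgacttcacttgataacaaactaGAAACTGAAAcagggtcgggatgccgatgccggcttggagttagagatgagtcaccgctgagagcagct
DDX60, chr4:168318753-168319002, minus strand: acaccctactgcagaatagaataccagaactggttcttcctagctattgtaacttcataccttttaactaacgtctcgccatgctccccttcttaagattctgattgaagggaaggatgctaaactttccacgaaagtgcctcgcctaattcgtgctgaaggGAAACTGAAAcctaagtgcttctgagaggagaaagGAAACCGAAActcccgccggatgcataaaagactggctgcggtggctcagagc
HERC5, chr4:88456869-88457118, plus strand: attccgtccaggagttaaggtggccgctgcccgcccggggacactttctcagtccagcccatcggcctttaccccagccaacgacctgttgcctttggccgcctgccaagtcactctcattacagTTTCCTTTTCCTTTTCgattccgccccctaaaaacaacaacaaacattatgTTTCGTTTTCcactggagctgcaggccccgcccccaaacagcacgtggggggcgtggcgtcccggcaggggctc
IFI6, chr1:27672193-27672442, minus strand: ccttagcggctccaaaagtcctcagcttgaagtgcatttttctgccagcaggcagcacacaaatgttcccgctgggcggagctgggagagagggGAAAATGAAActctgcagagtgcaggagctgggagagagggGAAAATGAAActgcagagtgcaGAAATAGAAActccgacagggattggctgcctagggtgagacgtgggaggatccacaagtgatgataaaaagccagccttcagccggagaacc
CXCL10, chr4:76023498-76023747, minus strand: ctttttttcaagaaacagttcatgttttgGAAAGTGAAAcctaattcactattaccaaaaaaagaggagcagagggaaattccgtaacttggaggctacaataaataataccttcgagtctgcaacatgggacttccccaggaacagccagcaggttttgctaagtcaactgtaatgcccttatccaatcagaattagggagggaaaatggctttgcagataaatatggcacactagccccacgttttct

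**Figure D1:**
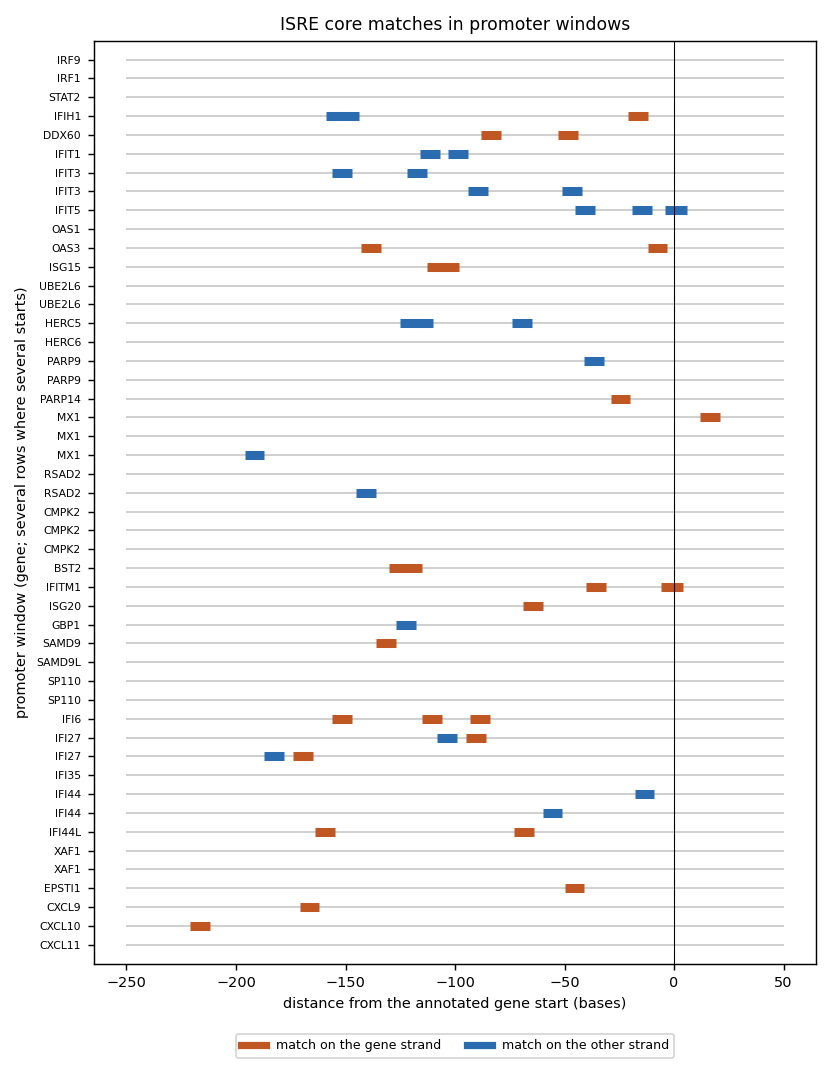
Position of the ISRE core in each RefSeq promoter window of the listed genes, in bases from the annotated start, with orange bars for matches on the gene strand and blue bars for matches on the other strand. Of 36 genes with a window, 24 hold a match, most of them in the 200 bases before the start.

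Genes with and without the element were found among those that changed with I-BET762. Of 18 genes called lower in 1 line or more, 17 had a window and 12 of these held an ISRE match. UBE2L6, HERC6, CMPK2, IFI35 and CXCL11 had a window without one. Of the 4 genes called higher, HERC5 and IFI6 had a window and both held a match, while IRF7 and IFIT2 had no window in the table used. Of the 22 genes not called at either dose, 16 had a window and 10 held a match.

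The first comparison asked how active these genes were in each line without drug. The genes were brightest in PC3. In vehicle, 37 of the 44 genes reached the floor in PC3, 26 did in NCI-H660, 25 on arrays labelled VCaP and 19 on arrays labelled LNCaP. The shares were 84.1%, 59.1%, 56.8% and 43.2%, against 58.8%, 60.1%, 56.2% and 56.7% of all genes in the same 4 lines. The median signal of the 44 genes was 413 in PC3, 154 in NCI-H660, 138 on arrays labelled VCaP and 78.0 on arrays labelled LNCaP, and the median of all genes was 194, 225, 171 and 167 in the same lines. Of 39 genes over the floor in vehicle somewhere, 27 were highest in PC3, 8 in NCI-H660, 3 on arrays labelled LNCaP and 1 on arrays labelled VCaP. In the probe sets used, DHX58, BST2, TRIM22 and GBP1 stayed under 100 on all 24 arrays. For GBP1, an interferon-induced GTPase, this did not hold for its other 3 probe sets, which passed the floor in PC3 vehicle alone, with a highest array of 288.7, 268 and 182.

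**Figure D2:**
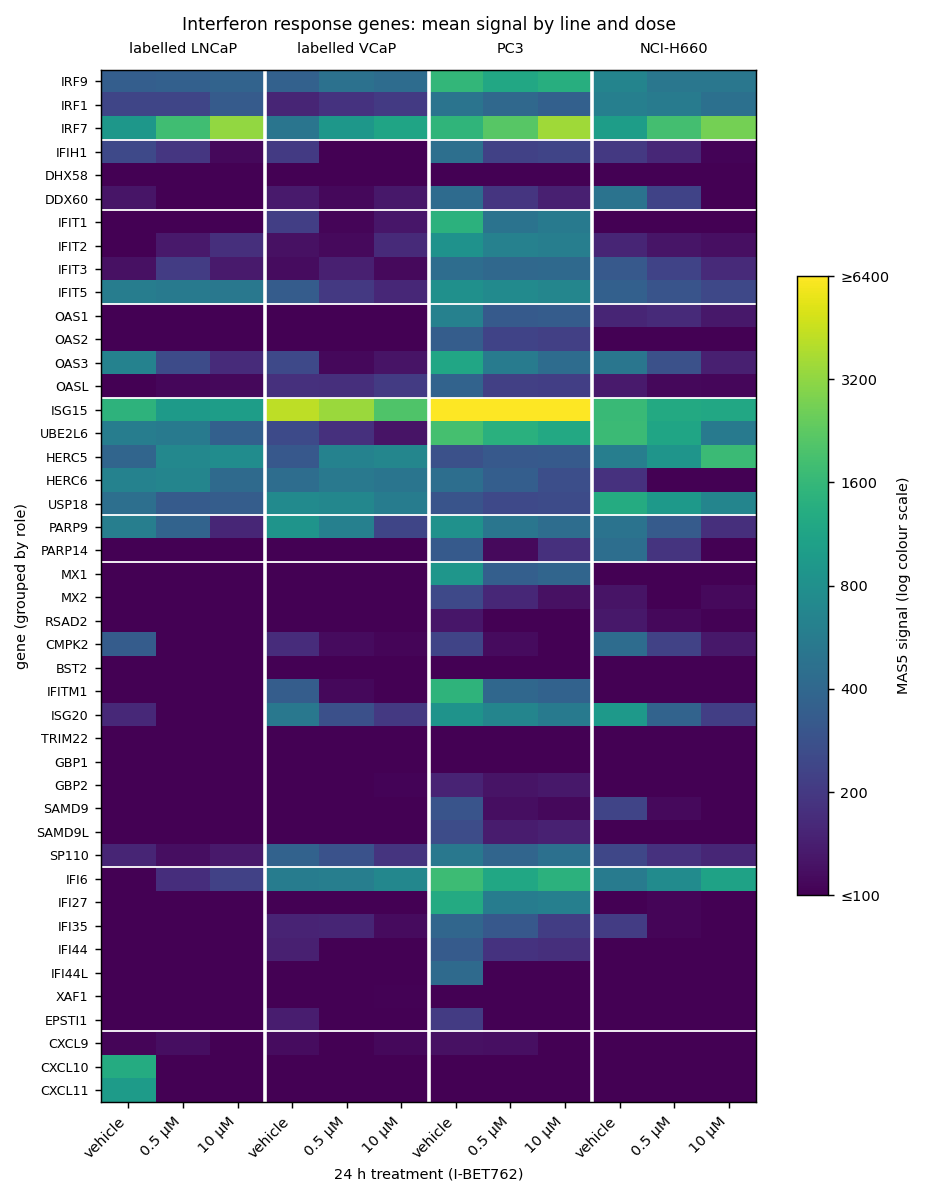
Mean signal of the 44 genes (rows, grouped by role) in the 12 groups (columns, 2 arrays each), from the mean of log2 signals with values under 100 set to 100, on a log colour scale. PC3 holds signal in 37 genes in vehicle, and CXCL10 and CXCL11 are bright only in the vehicle group labelled LNCaP.

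Set against PC3, most genes were lower in the vehicle cells of the luminal labels. On arrays labelled LNCaP, 27 of 44 genes were called lower than in PC3 (background 12.6% of all genes) and 2 higher (background 10.3%). The pair called higher was CXCL10 and CXCL11. On arrays labelled VCaP, 24 genes were lower than in PC3 (background 11.5%) and 1 higher (background 11%). PC3 against NCI-H660 had 21 genes higher (background 13.6%) and 2 lower (background 14.7%) (USP18, which removes ISG15 from proteins, and HERC5, the ligase that attaches it). The median differences were -2.01 for labelled LNCaP over PC3, -1.33 for labelled VCaP over PC3 and 1.18 for PC3 over NCI-H660 on the log2 scale, against -0.14, -0.05 and 0.08 for all genes. These comparisons share their vehicle arrays.

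ISG15 itself, the modifier, read 7952 ± 843 in PC3, against 1673 ± 132 in NCI-H660 (SD, n = 2 each). The vehicle arrays read 1423 and 1514 under the LNCaP label and 4522 and 3950 under the VCaP label. IFI27, a mitochondrial and nuclear membrane protein gene, had 1053 and 1526 in PC3, against 18.3 and 8.17 in NCI-H660, at least 12.7-fold. MX1, a GTPase that traps viral nucleocapsids, had 740 and 1067 in PC3, against 9.24 and 38.9 in NCI-H660, at least 8.89-fold. IFI27 and MX1 stayed under 100 on every array of the other lines except 1 NCI-H660 array with IFI27 at 112. They were chosen for this account after their values were seen.

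Between the luminal labels genes were called in both directions. Labelled LNCaP had 4 genes called higher than labelled VCaP (9.09%, background 8.58%), which is near the share of all genes. It had 11 lower (25%, background 10.2%). The median difference was -0.08, against -0.06 for all genes, with 27 of the 44 genes over the floor in either group. The genes called higher were the chemokines CXCL10 and CXCL11, the RNA-activated synthetase OAS3, and UBE2L6, the conjugating enzyme for ISG15. CXCL10 had 1248 and 1323 on vehicle arrays labelled LNCaP and 70.2 and 23.6 under the VCaP label, a difference of at least 12.9-fold (adjusted p = 5.88e-05). CXCL11 had 956 and 1020 on the arrays labelled LNCaP and 7.65 and 13.1 on those labelled VCaP, a difference of at least 9.88-fold (adjusted p = 0.000386). These receptor ligands draw activated T cells, and on the other 3 lines both were under 100 on every array.

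The genes lower under the LNCaP label were led by IFIT1, IFI35 and IFI6. IFIT1, which binds viral RNA caps, had 4.95 and 4.76 on arrays labelled LNCaP, against 236 and 200 on arrays labelled VCaP, at least 2.17-fold (adjusted p = 3.18e-05). IFI35 had 6.78 and 12.6 labelled LNCaP, against 175 and 131 labelled VCaP, at least 1.52-fold (adjusted p = 1.07e-05). IFI6, an antiapoptotic membrane protein gene, had 62.5 and 94.8 labelled LNCaP, against 574 and 567 labelled VCaP, at least 5.71-fold (adjusted p = 1.75e-07). Arrays labelled LNCaP thus held high chemokine signal beside floor-level signal of several other genes. Labelled LNCaP against NCI-H660 had 3 genes higher (background 12.4%) and 14 lower (background 16%), and labelled VCaP against NCI-H660 had 6 higher (background 13.1%) and 11 lower (background 14.7%).

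The upstream arm of the pathway was read from 3 further lists. Of 18 interferon genes measured, no type I, II or III ligand was called against vehicle or between lines in vehicle, with 0 over the floor in the comparisons of arrays labelled LNCaP, labelled VCaP or NCI-H660 with their vehicle and 2 over it in those of PC3. IFNB1 read 1.83 to 75.3 over the 24 arrays, under the floor on each. JAK1, the kinase shared by both interferon receptor types, was called 11.6-fold higher in vehicle on arrays labelled LNCaP than on arrays labelled VCaP (adjusted p = 2.88e-10). The vehicle signals of JAK1 were 1359 and 1476 under the LNCaP label, 110 and 135 under the VCaP label, 3182 and 3336 in PC3, and 1431 and 1333 in NCI-H660. LNCaP cells are known for silenced JAK1.

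The main question was what I-BET762 did to these genes. At 10 µM, more genes were called lower than higher in each line. On arrays labelled LNCaP 8 of 44 were lower (18.2%, background 6.74%) and 3 higher (background 6.31%). Those labelled VCaP had 8 lower (18.2%, background 5%) and 2 higher (background 2.95%). PC3 had 7 lower (15.9%, background 2.07%) and 1 higher (background 2.23%), and NCI-H660 had 10 lower (22.7%, background 3.68%) and 2 higher (background 2%). The median log2 change of the 44 genes was -0.78 in PC3, -0.42 in NCI-H660, -0.32 labelled VCaP and -0.20 labelled LNCaP, against -0.01, -0.07, 0.06 and 0.06 for all genes. Over the 4 lines and both doses, 22 of the 44 genes were called against vehicle at least once and 22 were not.

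At 0.5 µM the calls were fewer. Arrays labelled LNCaP had 4 lower (background 2.71%) and 2 higher (background 2.3%), and arrays labelled VCaP had 3 lower (background 2.5%) and 1 higher (background 0.748%). PC3 had 5 lower (background 0.622%) and 0 higher (background 0.627%). NCI-H660 had ISG20 alone lower (background 0.576%) and 0 higher (background 0.344%). The median log2 changes were -0.49 in PC3, -0.43 in NCI-H660, -0.23 labelled VCaP and 0.01 labelled LNCaP, against 0.01, -0.03, 0.04 and 0.09 for all genes. In PC3 41 of the 44 changes were negative at 0.5 µM and 40 at 10 µM. These medians and signs again include genes under the floor in both groups. At 0.5 µM 37 of the 44 genes reached it in either group in PC3, 26 in NCI-H660, 25 labelled VCaP and 22 labelled LNCaP. The 2 doses of a line share its vehicle arrays.

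**Figure D3:**
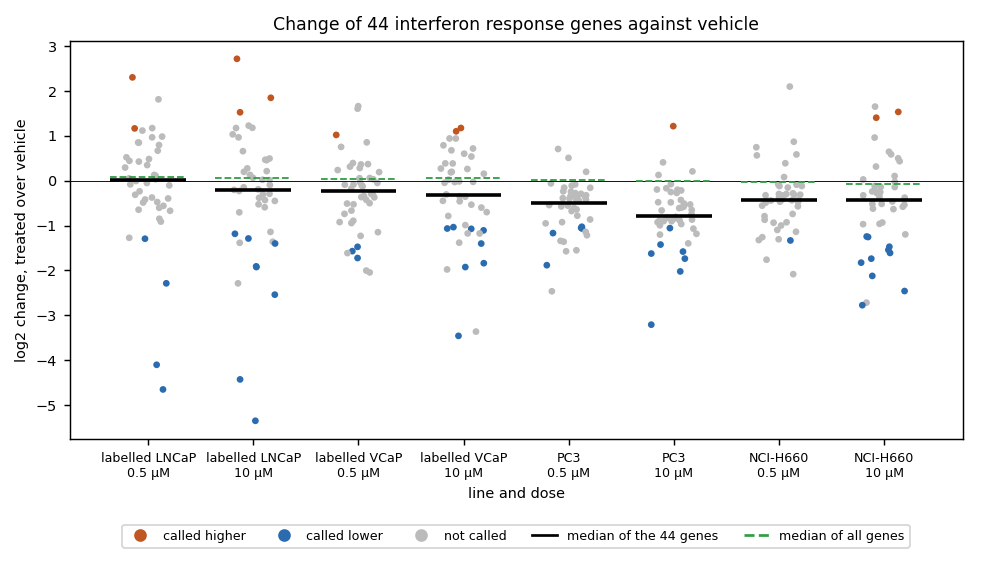
Log2 change of each of the 44 genes over vehicle (points), by line and dose, with genes called lower in blue, genes called higher in orange, the median of the 44 genes as a black line and the median of all genes as a dashed green line. The black line lies below the green one in each column, by most in PC3 at 10 µM (-0.78 against -0.01), and the lowest points are CXCL11 and CXCL10 on arrays labelled LNCaP. Genes under the floor in both groups are among the points and in the medians.

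The arrays were also compared without a model. In PC3 both treated arrays lay below both vehicle arrays for 30 of 44 genes at 0.5 µM (68.2%, background 18.4%) and for 28 at 10 µM (63.6%, background 21.1%). They lay above for 2 genes at 0.5 µM (background 18.9%) and 1 at 10 µM (background 21.3%). NCI-H660 had 21 genes below at 0.5 µM (background 19.6%) and 21 at 10 µM (background 24.8%), with 3 above at each dose (background 19.5% and 23.3%). On arrays labelled VCaP 15 were below at each dose (background 20.1% and 23.3%), with 6 above at 0.5 µM and 7 at 10 µM (background 22% and 24.1%). On arrays labelled LNCaP the shares stood near the background, with 11 below at 0.5 µM and 12 at 10 µM (25% and 27.3%, background 21.4% and 23.8%) and 6 above at each dose (background 23.1% and 25.1%).

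Among the signalling factors, IRF7 rose and the others did not pass the test. IRF7, the transcription factor that switches on interferon alpha genes once phosphorylated, was called higher at 10 µM in 4 of 4 lines. Its signals on arrays labelled LNCaP were 821 and 999 in vehicle, 1708 and 1884 at 0.5 µM, and 3201 and 3332 at 10 µM. On arrays labelled VCaP they were 560 and 446 in vehicle, 917 and 895 at 0.5 µM, and 1128 and 1134 at 10 µM. In each line the treated arrays stood above the vehicle arrays at both doses without overlap. PC3 read 1428 and 1635 in vehicle, 2270 and 2088 at 0.5 µM, and 3687 and 3427 at 10 µM. NCI-H660 read 1107 and 918 in vehicle, 1827 and 1859 at 0.5 µM, and 2835 and 2518 at 10 µM. The log2 change of IRF7 at 10 µM was 1.85 ± 0.15 labelled LNCaP (SE, adjusted p = 7.17e-07), 1.41 in NCI-H660 (adjusted p = 3.19e-05), 1.22 in PC3 (adjusted p = 0.000144) and 1.18 labelled VCaP (adjusted p = 7.28e-05). Of all 19775 genes, 37 were called higher in the 4 lines at 10 µM.

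IRF9, the DNA-binding partner of STAT2, and IRF1, the factor most tied to the GAS site, were called in no line at either dose. The log2 change of IRF9 at 10 µM was -0.32 in NCI-H660, -0.22 in PC3, 0.26 labelled VCaP and 0.13 labelled LNCaP, each with an SE of 0.13. Its vehicle signals were 1502 and 1653 in PC3, 699 and 615 in NCI-H660, 388 and 342 labelled VCaP, and 344 and 345 labelled LNCaP. At 10 µM IRF9 read 1354 and 1360 in PC3, 489 and 561 in NCI-H660, 463 and 413 labelled VCaP, and 393 and 362 labelled LNCaP. The IRF1 signals stayed between 154 and 604 over the 24 arrays, with log2 changes at 10 µM of -0.35 in NCI-H660, -0.48 in PC3, 0.39 labelled VCaP and 0.47 labelled LNCaP and an SE of 0.17 each.

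OAS3, which makes the 2-5A messenger that activates RNA decay, fell in each line at 10 µM. Arrays labelled LNCaP had 598 and 664 in vehicle, 243 and 273 at 0.5 µM, and 158 and 179 at 10 µM. Arrays labelled VCaP had 239 and 259 in vehicle, 66.5 and 121 at 0.5 µM, and 85.3 and 157 at 10 µM. PC3 held the highest OAS3 signal, and its treated arrays were again all below its vehicle arrays. PC3 had 982 and 1380 in vehicle, 579 and 546 at 0.5 µM, and 433 and 436 at 10 µM. NCI-H660 had 530 and 500 in vehicle, 259 and 307 at 0.5 µM, and 140 and 151 at 10 µM. The log2 change of OAS3 at 10 µM was -1.91 labelled LNCaP (adjusted p = 0.00019), -1.83 in NCI-H660 (adjusted p = 0.000766), -1.42 in PC3 (adjusted p = 0.00514) and -1.11 labelled VCaP (adjusted p = 0.0147, at least 1.99-fold), each with an SE of 0.28. On arrays labelled VCaP the call was lost without the first 10 µM replicate, at a log2 change of -0.67, and on the log2(signal + 32) scale, at -0.92. Of all genes, 51 were called lower in the 4 lines at 10 µM. The second OAS3 probe set was not above the floor in any group and gives no second measure of this fall. The other OAS genes, OAS1, OAS2 and OASL, were called in no line, apart from another OAS2 probe set that was lower in PC3 at 0.5 µM, at least 1.81-fold (adjusted p = 0.0789).

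**Figure D4:**
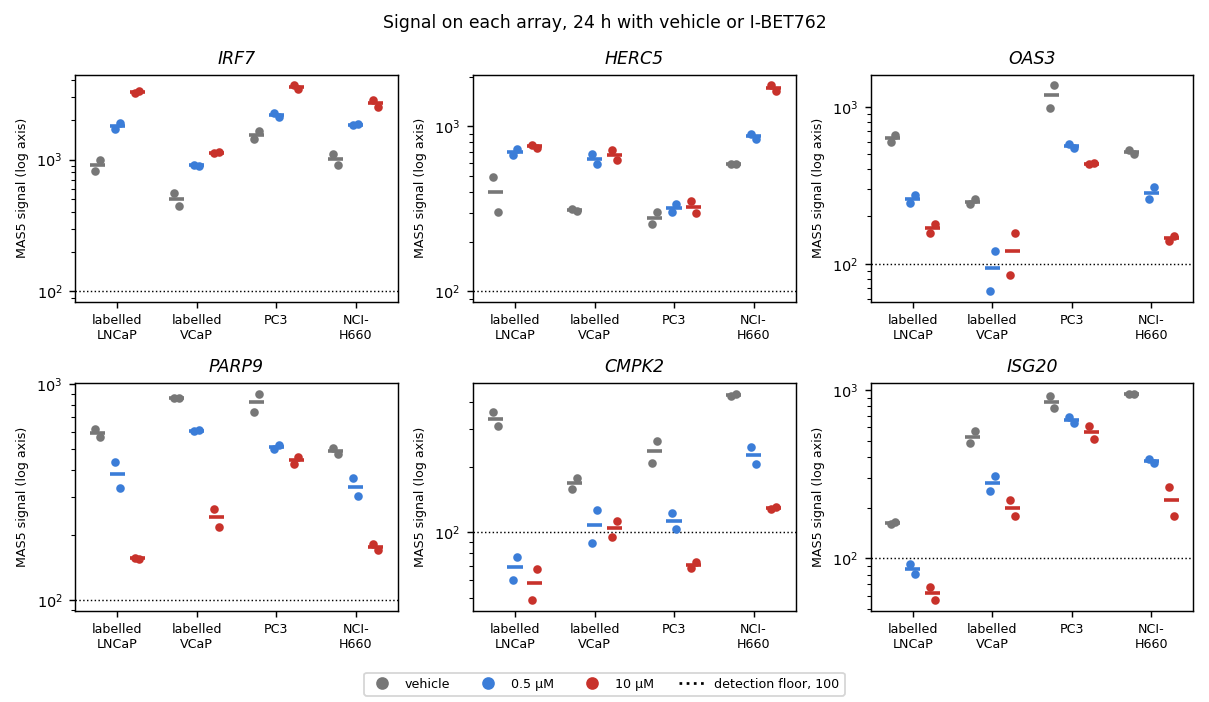
Signal on each array (points, log axis) and group mean (bars) for IRF7, HERC5, OAS3, PARP9, CMPK2 and ISG20 in 4 lines, with vehicle in grey, 0.5 µM in blue, 10 µM in red and the detection floor as a dotted line. IRF7 is higher at 10 µM than in vehicle in each line, and OAS3 and PARP9 are lower.

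Of the 3 genes of cytoplasmic RNA recognition, 2 fell. IFIH1 encodes the RNA sensor MDA5, and DDX60 is a helicase that promotes this sensing. IFIH1 read 207 and 196 in vehicle on arrays labelled VCaP, 70.7 and 65.2 at 0.5 µM, and 22.6 and 14.9 at 10 µM. On arrays labelled LNCaP it read 241 and 257 in vehicle, 218 and 170 at 0.5 µM, and 105 and 115 at 10 µM. The treated arrays lay below the vehicle arrays in both, and the fall of IFIH1 at 10 µM was at least 2.01-fold labelled VCaP (adjusted p = 3.04e-08) and 2.27-fold labelled LNCaP (adjusted p = 0.000178). PC3 had 423 and 491 in vehicle, 215 and 233 at 0.5 µM, and 237 and 231 at 10 µM for IFIH1. It was called lower there at 0.5 µM (log2 change -1.03, adjusted p = 0.00636). At 10 µM the log2 change was -0.97 (adjusted p = 0.0027), not called because the fold of 1.95 was under 2. The IFIH1 signals in NCI-H660 were 195 and 203 in vehicle, 154 and 165 at 0.5 µM, and 108 and 101.2 at 10 µM, with no call. DHX58, the third of these helicases, was under the floor on all 24 arrays.

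DDX60 was called lower in 3 lines at 10 µM, all but the arrays labelled VCaP. NCI-H660 had 402 and 596 in vehicle, 214 and 245 at 0.5 µM, and 86.7 and 91.6 at 10 µM, a fall of at least 4.90-fold at 10 µM (adjusted p = 0.000257). PC3 had 466 and 394 in vehicle, 229 and 159 at 0.5 µM, and 94.4 and 205 at 10 µM, at least 2.99-fold at 10 µM (adjusted p = 0.00592). The treated DDX60 values of PC3 differed by over 2-fold between the 10 µM arrays, and both were below vehicle. Arrays labelled LNCaP had 157 and 103 in vehicle, 99.4 and 91.7 at 0.5 µM, and 47.1 and 58.0 at 10 µM, at least 1.28-fold (adjusted p = 0.0105).

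The IFIT genes, whose products bind viral RNA and block its translation, did not move as a family. IFIT2 was called higher on arrays labelled LNCaP, with 12.4 and 57.6 in vehicle, 162 and 109 at 0.5 µM, and 176 and 177 at 10 µM. That is at least 1.32-fold at 0.5 µM (adjusted p = 0.00675) and at least 1.76-fold at 10 µM (adjusted p = 0.00092). Its second probe set was called higher at 10 µM as well, and also on arrays labelled VCaP, where the rise was at least 1.81-fold (adjusted p = 0.00998). In PC3 IFIT2 read 878 and 785 in vehicle, 637 and 604 at 0.5 µM, and 600 and 588 at 10 µM, with no call. IFIT5 was called lower on arrays labelled VCaP at 10 µM, by 1.07 ± 0.19 on the log2 scale (adjusted p = 0.00108), and IFIT3 was called in no line. A second IFIT3 probe set was called lower in NCI-H660 at 10 µM, by 2.06 on the log2 scale (adjusted p = 2.82e-05).

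IFIT1 in PC3 read 1367 and 1521 in vehicle, 446 and 528 at 0.5 µM, and 562 and 534 at 10 µM, without overlap, yet it was not called. The fit shares 1 spread per gene over the 12 groups. For IFIT1, 45.8% of the residual sum of squares came from the NCI-H660 arrays at 0.5 µM, which read 38.7 and 7.30, and 36.1% from the arrays labelled VCaP at 0.5 µM, which read 25.9 and 114. The SE was 0.69, against a log2 change in PC3 of -1.57 at 0.5 µM (adjusted p = 0.293) and -1.40 at 10 µM (adjusted p = 0.265). On the log2(signal + 32) scale, which damps differences near background, IFIT1, MX1 and IFI27 were called lower in PC3 at both doses, by -1.51, -1.27 and -1.10 at 0.5 µM (adjusted p = 0.0169, 0.0438 and 0.0564). The count of PC3 genes called at 0.5 µM was 9 on that scale, against 5. PARP14, SAMD9 and IFI44L were also called there on that scale alone, so the 9 do not hold all of the 5.

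The ISG15 pathway moved in both directions. HERC5, the ligase that attaches ISG15 to new proteins, was called higher in NCI-H660 and on arrays labelled VCaP. NCI-H660 had 590 and 588 in vehicle, 903 and 841 at 0.5 µM, and 1781 and 1635 at 10 µM, a log2 change at 10 µM of 1.54 ± 0.19 (SE, adjusted p = 0.000125). Arrays labelled VCaP had 315 and 309 in vehicle, 676 and 594 at 0.5 µM, and 718 and 625 at 10 µM. The treated HERC5 arrays stood above vehicle at both doses in both lines. The changes labelled VCaP were 1.02 at 0.5 µM (adjusted p = 0.00384) and 1.10 at 10 µM (adjusted p = 0.000957), just past a fold of 2, and with arrays centred on their medians they were 0.96 and 0.97 and were not called. HERC5 in PC3 read 258 and 302 in vehicle, 303 and 339 at 0.5 µM, and 351 and 297 at 10 µM, where the groups overlapped at 10 µM. Arrays labelled LNCaP read 494 and 302 in vehicle, 670 and 727 at 0.5 µM, and 773 and 740 at 10 µM for HERC5, above vehicle on each array and with no call.

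UBE2L6, the enzyme that hands ISG15 to its ligase, fell at 10 µM in NCI-H660 by 1.61 ± 0.18 on the log2 scale (adjusted p = 5.06e-05) and on arrays labelled VCaP by 1.03 ± 0.18 (adjusted p = 0.000957). ISG15 was called lower on arrays labelled VCaP alone, with 1940 and 2105 at 10 µM, against 4522 and 3950 in vehicle, a log2 change of -1.06 (adjusted p = 8.34e-05). HERC6, a related ligase, was called lower in NCI-H660 at 10 µM, at least 1.82-fold (adjusted p = 1.7e-05). USP18 was called in no line.

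PARP9, an ADP-ribosylation factor that works with the ligase DTX3L, was called between the doses in 2 lines. With the VCaP label it had 857 and 859 in vehicle, 603 and 611 at 0.5 µM, and 264 and 218 at 10 µM. On arrays labelled LNCaP it had 615 and 570 in vehicle, 436 and 329 at 0.5 µM, and 157 and 155 at 10 µM. In these lines PARP9 was the sole gene of the 44 called between the doses, lower at 10 µM than at 0.5 µM by 1.34 labelled VCaP (adjusted p = 0.000544, background 0.673%) and 1.28 labelled LNCaP (adjusted p = 0.000286, background 1.13%) on the log2 scale. Against vehicle the log2 change of PARP9 at 10 µM was -1.92 labelled LNCaP (adjusted p = 8.19e-07), -1.47 in NCI-H660 (adjusted p = 3.43e-05) and -1.84 labelled VCaP (adjusted p = 2.4e-06). NCI-H660 read 503 and 473 in vehicle, 365 and 302 at 0.5 µM, and 182 and 170 at 10 µM. PC3 read 740 and 900 in vehicle, 500 and 523 at 0.5 µM, and 426 and 459 at 10 µM, with no call. Its log2 change at 10 µM was -0.88 (adjusted p = 0.00209), a fold of 1.85 and so under 2. A second PARP9 probe set over the floor was not called in the 3 lines with a call, with log2 changes of -0.51 to -0.34 at 10 µM. The called fall thus holds for 1 of the 2 probe sets. PARP14, a related enzyme, was called lower in NCI-H660, with 409 and 492 in vehicle, 175 and 201 at 0.5 µM, and 89.5 and 48.1 at 10 µM, at least 4.49-fold at 10 µM (adjusted p = 0.00455).

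No gene of the 44 was called higher at 10 µM than at 0.5 µM in any line (background 0.9% labelled LNCaP, 0.167% in NCI-H660, 0.091% in PC3 and 0.384% labelled VCaP). NCI-H660 had DDX60 and UBE2L6 lower at the higher dose (background 0.501%), at least 2.29-fold (adjusted p = 0.0536) and by 1.04 on the log2 scale (adjusted p = 0.00959). PC3 had 0 genes lower (background 0.0708%), and limma gave 4 of the 44 an unadjusted p under 0.05 there.

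CMPK2, a mitochondrial nucleotide kinase gene that neighbours the antiviral gene RSAD2, was called lower in 3 lines at 10 µM. Arrays labelled LNCaP had 361 and 309 in vehicle, 60.5 and 77.4 at 0.5 µM, and 48.6 and 67.9 at 10 µM, at least 3.34-fold at each dose (adjusted p = 1.5e-05 and 1.29e-06). NCI-H660 had 428 and 438 in vehicle, 247 and 207 at 0.5 µM, and 128 and 131 at 10 µM, and PC3 had 210 and 265 in vehicle, 123 and 103 at 0.5 µM, and 68.8 and 72.8 at 10 µM. In each of these lines the groups were apart at both doses. The change of CMPK2 at 10 µM was -1.74 on the log2 scale in NCI-H660 (adjusted p = 0.000124) and at least 2.36-fold in PC3 (adjusted p = 0.000177). Arrays labelled VCaP read 159 and 179 in vehicle, 89.0 and 127 at 0.5 µM, and 95.3 and 114 at 10 µM, with no call.

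ISG20, an exonuclease that degrades viral RNA, was called lower in the lines other than PC3. NCI-H660 had 949 and 945 in vehicle, 387 and 366 at 0.5 µM, and 266 and 178 at 10 µM. The fall was 1.33 ± 0.20 at 0.5 µM (adjusted p = 0.00346) and 2.12 ± 0.20 at 10 µM (adjusted p = 1.38e-05) on the log2 scale, and the second ISG20 probe set made both calls. Arrays labelled VCaP had 483 and 571 in vehicle, 249 and 309 at 0.5 µM, and 222 and 178 at 10 µM (log2 change at 10 µM -1.40, adjusted p = 0.000203). Arrays labelled LNCaP had 161 and 164 in vehicle, 92.7 and 80.7 at 0.5 µM, and 67.3 and 56.4 at 10 µM (at least 1.62-fold at 10 µM, adjusted p = 0.000118). PC3 read 916 and 781 in vehicle, 692 and 637 at 0.5 µM, and 613 and 510 at 10 µM, without overlap and with no call. Its log2 change at 10 µM was -0.60 (adjusted p = 0.0717), a fold of 1.51 and so under 2.

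IFITM1, a membrane protein that blocks virus entry, was detected in 2 lines and fell in both. PC3 had 1329 and 1670 in vehicle, 339 and 482 at 0.5 µM, and 367 and 367 at 10 µM. Arrays labelled VCaP had 320 and 361 in vehicle, 87.8 and 121 at 0.5 µM, and 99.3 and 80.8 at 10 µM. The change of IFITM1 in PC3 was -1.88 at 0.5 µM (adjusted p = 0.0228) and -2.02 at 10 µM (adjusted p = 0.00514) on the log2 scale. On arrays labelled VCaP the fall was at least 3.09-fold at 0.5 µM (adjusted p = 0.0172) and at least 3.40-fold at 10 µM (adjusted p = 0.00409). The other arrays, labelled LNCaP or NCI-H660, were under 100.

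SAMD9, an antiviral factor, and MX2 and IFI44L were further genes lower in PC3 at 10 µM. IFI44L was detected in PC3 alone, with 331 and 534 in vehicle, 75.5 and 76.8 at 0.5 µM, and 27.2 and 76.1 at 10 µM, at least 4.20-fold at 10 µM (adjusted p = 0.0802). SAMD9 in PC3 had 282 and 308 in vehicle, 97.1 and 136 at 0.5 µM, and 81.0 and 120 at 10 µM, at least 2.69-fold at 10 µM (adjusted p = 0.0555). The fall of MX2, a relative of MX1, was 1.06 ± 0.35 on the log2 scale (adjusted p = 0.0724), with 120 and 119 at 10 µM, against 248 and 250 in vehicle. The IFI44L and SAMD9 calls sat close to the threshold and were lost without either PC3 vehicle replicate or without the first 10 µM replicate. The 3 GBP1 probe sets over the floor in PC3 vehicle were called lower there at 10 µM as well, although the one used for the counts was not. They read 266 and 289, 145 and 268, and 162 and 182 in PC3 vehicle, and all were under the floor at 10 µM, at least 2.77-fold (adjusted p = 0.00433), 1.97-fold (adjusted p = 0.0919) and 1.72-fold (adjusted p = 0.0314) lower. NCI-H660 had SAMD9 lower by at least 2.33-fold (adjusted p = 0.0548) and IFI35 by at least 2.10-fold (adjusted p = 0.0972) at 10 µM.

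The 5 calls in PC3 at 0.5 µM rested on its vehicle arrays. They were IFITM1, DDX60 (log2 change -1.17, adjusted p = 0.0782), CMPK2 (-1.06, adjusted p = 0.0161), OAS3 (-1.05, adjusted p = 0.0647) and IFIH1, and without the second vehicle replicate 0 of the 44 genes were called. With each line fitted alone, 0 were called in PC3 at 0.5 µM and 2 at 10 µM, against 8 in the fit of all lines.

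The chemokines gave the deepest falls, all on arrays labelled LNCaP. CXCL10 had 1248 and 1323 in vehicle, 62.9 and 88.8 at 0.5 µM, and 49.97 and 71.2 at 10 µM. CXCL11 had 956 and 1020 in vehicle, 35.7 and 43.2 at 0.5 µM, and 39.0 and 15.0 at 10 µM. All 4 treated arrays were under the floor for both genes, at least 12.9-fold below vehicle for CXCL10 (adjusted p = 0.00122 at 0.5 µM and 0.00024 at 10 µM) and at least 9.88-fold for CXCL11 (adjusted p = 0.0139 and 0.00271). The second CXCL11 probe set made the same calls. CXCL9, the third of these chemokines, lay between 35.5 and 144 over the 24 arrays and was called nowhere.

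**Figure D5:**
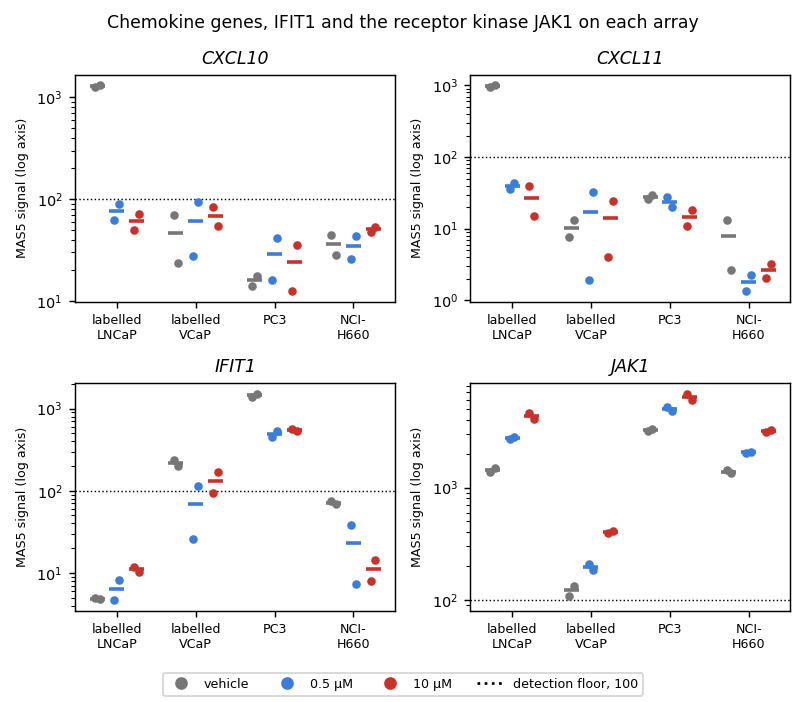
Signal on each array (points, log axis) and group mean (bars) of CXCL10, CXCL11, IFIT1 and JAK1, with vehicle in grey, 0.5 µM in blue, 10 µM in red and the detection floor as a dotted line. Both chemokines pass 100 only on the vehicle arrays labelled LNCaP, IFIT1 is highest in PC3 and JAK1 is lowest on arrays labelled VCaP.

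IFI6 was called higher on arrays labelled LNCaP, as were IFIT2 and, at 10 µM, IRF7. IFI6 had 62.5 and 94.8 in vehicle, 176 and 170 at 0.5 µM, and 261 and 188 at 10 µM. That is at least 1.73-fold at 0.5 µM (adjusted p = 0.00226) and at least 2.22-fold at 10 µM (adjusted p = 0.000101). With arrays centred on their medians the change at 0.5 µM was 0.99 and was not called. In NCI-H660 IFI6 read 1082 and 1131 at 10 µM, against 593 and 542 in vehicle, which was under a fold of 2. IFI6 was called higher there with quantile normalization, by 1.06 on the log2 scale (adjusted p = 0.00605), and with median centring, by 1.14 (adjusted p = 0.0086). PC3 read 1534 and 1375 at 10 µM, against 1454 and 2055 in vehicle, where the groups overlapped.

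The response on arrays labelled LNCaP was set against that of the other lines in a test of the difference itself. Against arrays labelled VCaP at 10 µM, 4 of the 44 genes had a higher response (background 3.89%) and 3 a lower one (background 2.66%), and at 0.5 µM 2 were higher (background 2.12%) and 2 lower (background 0.753%). Against the mean of the other 3 lines at 10 µM, 7 were higher (background 4.04%) and 4 lower (background 3.53%), and at 0.5 µM 3 were higher (background 1.42%) and 2 lower (background 1.12%). Each of these 27 differences drew on at least 2 arrays under the floor, so their size is not measured. With signals under 100 set to 100, and no test, the difference at 10 µM, labelled LNCaP minus that mean, was -3.68 for CXCL10, -3.30 for CXCL11 and -0.53 for CMPK2 on the log2 scale. It was 0.96 for IFIT2 and 0.82 for IFI6. The sign turned for IFIH1 against labelled VCaP at 10 µM, at -0.17, and for RSAD2 against the mean of the other lines at 10 µM, at 0.24, so no direction is read for these.

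Genes upstream in the pathway were read the same way. Of 15 receptors, kinases and feedback genes measured, 4 were called higher at 10 µM on arrays labelled LNCaP (26.7%, background 6.31%) and 3 in NCI-H660 (20%, background 2%). PC3 had 2 higher (13.3%, background 2.23%), and arrays labelled VCaP had 2 (13.3%, background 2.95%). The sole gene called lower at 10 µM in this list was IFNGR2 in NCI-H660 (6.67%, background 3.68%). JAK1 was called higher at 10 µM in 3 lines, with 4590 and 4031 at 10 µM, against 1359 and 1476 in vehicle on arrays labelled LNCaP (log2 change 1.60, adjusted p = 7.29e-07), and with 393 and 412 at 10 µM, against 110 and 135 in vehicle on arrays labelled VCaP (1.73, adjusted p = 8.18e-07). In PC3 its log2 change at 10 µM was 0.97 (adjusted p = 0.000263), not called because the fold of 1.965 was under 2. SOCS1, the feedback inhibitor of the JAK kinases, read 411 and 377 at 10 µM on arrays labelled LNCaP, against 21.4 and 50.1 in vehicle, at least 3.94-fold (adjusted p = 2.62e-06). NCI-H660 (at least 2.31-fold, adjusted p = 0.0182) and PC3 (log2 change 1.03, adjusted p = 0.0612) had it called higher as well. In NCI-H660 the 2 chains of the interferon gamma receptor moved apart, IFNGR1 by 1.40 (adjusted p = 1.39e-06) and IFNGR2 by -1.39 (adjusted p = 7.3e-05). The signs were the same at 10 µM in PC3 (0.33 and -0.84) and labelled LNCaP (0.24 and -0.79), with no call. Labelled VCaP had IFNGR1 called higher by 1.06 and IFNGR2 at -0.14, with no call.

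Of 18 nucleic acid sensors and adaptors measured, 4 were called lower at 10 µM in NCI-H660 (22.2%, background 3.68%), 2 in PC3 (11.1%, background 2.07%) and 2 on arrays labelled VCaP (11.1%, background 5%), with 0 higher in each. On arrays labelled LNCaP 1 was lower (5.56%, background 6.74%) and 0 higher, which is no more than among all genes. STING1, the adaptor that relays cytosolic DNA signals, was called lower at 10 µM in the lines other than labelled LNCaP. NCI-H660 had 273 and 303 at 10 µM, against 818 and 874 in vehicle, a log2 change of -1.56 (adjusted p = 0.00665). Arrays labelled VCaP had 41.1 and 50.2 at 10 µM, against 260 and 218 in vehicle, at least 2.38-fold (adjusted p = 0.000188), and PC3 had 122 and 75.2 against 244 and 207, at least 2.04-fold (adjusted p = 0.0289). MYD88, the adaptor of most Toll-like receptors, was lower at 10 µM in NCI-H660 by 1.97 (adjusted p = 5.41e-07) and on arrays labelled VCaP by 1.15 (adjusted p = 1.92e-05) on the log2 scale.

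Across lines, 9 of the 44 genes were called lower at 10 µM in 2 lines or more (20.5%, background 3.8%) and 2 were called higher in 2 lines or more (4.55%, background 2.93%). OAS3 was lower in 4 lines, DDX60, PARP9, CMPK2 and ISG20 in 3, and IFIH1, UBE2L6, IFITM1 and SAMD9 in 2. A further 9 genes were lower in 1 line and 26 in none. IRF7 was higher in 4 lines, HERC5 in 2, and IFIT2 and IFI6 on arrays labelled LNCaP. Of the 27 calls at either dose with a second probe set to compare, another probe set made the same call in 7 and the opposite call in 0. In the other 20 no other probe set was called, mostly because it was under the floor. Another probe set was over the floor and still not called for IFIH1 labelled VCaP at both doses, for PARP9, and for SAMD9 in PC3. Its change was negative in each of these. Another probe set was called where the one used was not for 7 genes, 4 of them (GBP1, IFIT3, OAS2 and SP110) among the 22 not called. SP110, a nuclear body protein gene, was lower by this second reading in NCI-H660 and on arrays labelled VCaP at 10 µM.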

How the data were processed

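RNA was hybridised to 24 Affymetrix U133 Plus 2.0 arrays, 1 per sample, with 2 biological replicates in each of 12 groups. The authors deposited MAS5 signal for each probe set, a linear intensity with every array scaled to a target of 500. Precision is limited by the 2 arrays per group. Log2 signals were fitted in limma 3.58.1 (R 4.3.3) as 1 model of 12 groups, with 12 residual and 1.29 prior degrees of freedom, with Benjamini-Hochberg adjustment across 54613 probe sets in each of 22 contrasts. The fit was tested on simulated data with changes placed only in probe sets well over the floor, so that test does not speak for genes near it. Of the probe sets, 41091 carried 1 symbol, 1801 several and 11721 none in the platform annotation, and 62 controls were left out. The brightest probe set by mean log2 signal stood for a gene, without _x_at sets where another existed.

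Values on every array were given for up to 5 rises and 5 falls per contrast with vehicle, up to 5 differences between the labels LNCaP and VCaP, and the signalling factors. Genes outside this rule are given as illustrations, chosen after their values were seen. The genes, the lists (interferon ligands, receptors with kinases and feedback genes, sensors with adaptors, and cell markers) and the rule were chosen with earlier results of these data known. Alternatives changed the floor, normalization, variance model, log offset, probe set rule, replicate block, lines fitted and arrays left out. Some genes are not reported here.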

Additional observations from a re-analysis of the deposited data

Results flagged for a closer look

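The change with I-BET762 over vehicle differed between the arrays labelled LNCaP and the other lines for the genes below, in limma's test of the difference itself. Each value is the log2 change labelled LNCaP minus the other log2 change, so that a positive one means a higher response under the LNCaP label. Minus labelled VCaP at 0.5 µM the differences were IFIH1 1.19, CMPK2 -1.62, IFI6 1.11, CXCL10 -4.42. Minus labelled VCaP at 10 µM they were IFIH1 2.28, IFIT2 2.12, CMPK2 -1.84, IFITM1 1.73, IFI6 1.25, CXCL10 -5.15, CXCL11 -5.32. Minus the mean of the other 3 lines at 0.5 µM they were IFIT2 2.52, OASL 1.57, CMPK2 -1.40, IFI6 1.20, CXCL10 -4.42. Minus the same mean at 10 µM they were IFIT1 2.81, IFIT2 2.80, OASL 1.60, MX2 1.11, RSAD2 -1.72, CMPK2 -1.15, SAMD9 2.44, IFI6 1.20, IFI35 2.04, CXCL10 -4.97, CXCL11 -4.61. The adjusted p-values ran from 0.000105 for IFIH1 to 0.0958 for MX2. Each of the 27 differences drew on at least 2 arrays under the floor of 100, CXCL10 and CXCL11 on 6 of 8 arrays against labelled VCaP and on 14 of 16 against the other lines, so these sizes rest on values near background. IFIT1, MX2, RSAD2, SAMD9 and IFI35 lay under it on all arrays labelled LNCaP, and IFIT2, OASL and IFI6 on their vehicle arrays labelled LNCaP. With signals under 100 set to 100, IFIH1 against labelled VCaP at 10 µM became -0.17 and RSAD2 became 0.24, and the other 25 kept their sign. Whether the label mismatch of these arrays has a part in the differences was not tested.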

How the results depend on the processing

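Among the up to 5 rises and 5 falls followed per contrast with vehicle, no change turned sign in any alternative that refitted it. Calls were lost, however. With each line fitted alone 15 of these changes were no longer called and 29 still were. With the followed basal differences between the LNCaP and VCaP labels included, 5 calls were lost and 44 kept on the log2(signal + 32) scale. Median centring lost 3, the replicate block 2, quantile normalization 1, the mean over probe sets 1 and the intensity trend 0. Counts were compared by size only, and the changes of the other genes were not followed. Of the 27 differences between lines, setting signals under 100 to 100, a setting chosen after seeing the data, turned the sign of 2, IFIH1 (2.28, then -0.17) and RSAD2 (-1.72, then 0.24) at 10 µM, and moved 22 others by more than their SE. Each count below is of the 44 genes. Without the detection floor, the counts for 10 µM against 0.5 µM became 3 labelled LNCaP and 2 labelled VCaP, against 1 each. At 0.5 µM in NCI-H660, where 1 gene was called, the count was 3 with quantile normalization, 2 with an intensity trend, 4 with log2(signal + 32) and 2 with the mean over probe sets. The log2(signal + 32) scale gave 9 genes and the mean over probe sets 8 in PC3 at 0.5 µM, against 5, and the first of these gave 10 against 5 for labelled LNCaP minus the mean of the other 3 lines at 0.5 µM. With each line fitted alone, which leaves fewer arrays for the spread, 0 genes were called for 10 µM against 0.5 µM labelled LNCaP, labelled VCaP or in NCI-H660, 0 at 0.5 µM in PC3 or NCI-H660, and 2 at 10 µM in PC3, against 8. With the replicate block the count for 10 µM against 0.5 µM in NCI-H660 was 1, against 2. That block moved no other count by over 1.5 times, and same-numbered arrays correlated at -0.08 to 0.11 in their deviations, so the numbers were not read as pairs. Leaving out 1 array at a time, where the lone replicate takes its spread from the rest of the fit, the counts ranged over 1 to 2 for NCI-H660 at 0.5 µM, 1 to 3 for its 10 µM against 0.5 µM, 2 to 6 for labelled VCaP at 0.5 µM (2 without its first 0.5 µM replicate), 0 to 4 for PC3 at 0.5 µM and 5 to 8 at 10 µM (0 and 5 without its second vehicle replicate), and 1 to 2 for labelled LNCaP at 10 µM against 0.5 µM. For labelled LNCaP minus labelled VCaP they ranged over 2 to 5 at 0.5 µM and 3 to 6 at 10 µM, and for labelled LNCaP minus the mean of the other 3 lines over 6 to 12 at 10 µM, lowest without the first vehicle replicate labelled LNCaP at 10 µM. Median centring moved the median of all probe sets by -0.18 labelled LNCaP at 0.5 µM, -0.13 at 10 µM labelled LNCaP and labelled VCaP, and 0.18 in NCI-H660 at 10 µM. With 2 arrays per group and genes near the floor, a fall under 100 is bounded and not measured, and a missed call does not show an unchanged gene.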
